A study of Mus musculus with 2 samples.

Results

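Metallothioneins and zinc transporters were followed as 10 genes of 52550 in the deposited tables: the metallothioneins Mt1 and Mt2, the metal-sensing factor Mtf1, the zinc exporters Slc30a1, Slc30a5 and Slc30a7, and the zinc importers Slc39a1, Slc39a6, Slc39a7 and Slc39a10. Members were chosen by gene symbol, and all 10 matched an Ensembl identifier in the tables. The cells were RAW264.7, a murine line of macrophages made with the Abelson leukaemia virus, purified and left untreated after 2D or 3D culture. The labels do not describe the 3D method further. There was 1 library of polyadenylated RNA for each method, holding 14371084 counts for 2D and 16652503 for 3D, so without replicates no p-value is given. The question of the comparison is how transcript levels of this line differ between the culture methods. In bulk RNA, fewer cells that express a gene and less RNA per cell cannot be told apart.

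Zinc is bound in the cytosol by metallothioneins, small proteins rich in cysteine that also bind copper and cadmium. ZnT proteins, encoded by Slc30a genes, move zinc out of the cytosol, across the plasma membrane or into vesicles and the Golgi apparatus. ZIP proteins, encoded by Slc39a genes, bring zinc into the cytosol from outside the cell or from organelles. When free zinc rises, the zinc finger factor MTF1 binds metal response elements and activates metallothionein genes and Slc30a1, and macrophages use such shifts of zinc to deprive or poison engulfed microbes.

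The sequences next to the starts of Mt1, Mt2 and Slc30a1 are shown because these genes are textbook targets of MTF1, while the libraries gave them very different values. Each line runs 5′ to 3′ on the gene's strand and comes from the RefSeq annotation of GRCm38.p6. The first line of each gene holds the 120 bases before the annotated start and the second holds a stretch of 30 bases downstream of it. Capitals mark the core of a metal response element, written TGCACNC or TGCGCNC, on either strand.
Mt1 before the start, chr8:94178969-94179088, plus strand: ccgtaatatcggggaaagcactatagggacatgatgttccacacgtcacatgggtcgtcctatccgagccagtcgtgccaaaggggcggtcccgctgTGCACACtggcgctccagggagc
Mt1 after the start, chr8:94179089-94179118, plus strand: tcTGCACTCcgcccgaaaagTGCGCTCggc
Mt2 before the start, chr8:94172498-94172617, plus strand: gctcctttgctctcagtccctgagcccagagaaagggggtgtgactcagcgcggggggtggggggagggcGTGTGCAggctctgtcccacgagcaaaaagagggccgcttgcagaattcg
Mt2 after the start, chr8:94172618-94172647, plus strand: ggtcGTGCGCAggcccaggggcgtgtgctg
Slc30a1 before the start, chr1:191906661-191906780, plus strand: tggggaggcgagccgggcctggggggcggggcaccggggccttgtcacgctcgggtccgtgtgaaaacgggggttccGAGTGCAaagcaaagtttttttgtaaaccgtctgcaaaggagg
Slc30a1 after the start, chr1:191906799-191906828, plus strand: cgcctccgggccGAGCGCAgtcgccgcgga

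Within windows of 300 bases (250 before and 50 after the start), Mt2 held 4 matches of this core, Mt1 held 3, Slc30a1 held 2 and Slc30a5 held 1. Matches in Mt1 lay at -23 to -17, 3 to 9 and 21 to 27, counted from the RefSeq start. Of 32817 promoter windows of the same length, 25.7% held at least 1 match, 6.15% at least 2, 1.31% at least 3 and 0.296% at least 4, with overlapping matches counted as 1. No match was found in the windows of Mtf1, Slc30a7, Slc39a1, Slc39a7 and Slc39a10, which says only that these letters are not there; the window of Slc39a6 was not searched. A match is a description of the sequence and not a bound site. The start that these cells use was not measured, so a match after the annotated start may still lie before the transcript. For Mt2 the GENCODE M21 start, 94172664, lies past the stretch shown after the RefSeq start. Matches outside the windows were not counted.

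Mt1 was higher in the 3D library by 4.24-fold, the largest ratio of the group under TMM scaling, and Slc39a10 and Slc30a1 were lower there by close to 2-fold. The order by size in either direction depends on the scaling: with total counts the log2 ratio was 1.48 for Mt1 and -1.69 for Slc39a10. It also depends on adjustment: after the full adjustment for transcript composition the log2 ratio was 0.57 for Mt1 and 0.78 for Slc30a7. Under TMM scaling the other 5 measured genes differed by less than 1.7-fold. Levels are given as TMM-scaled CPM, counts scaled to a common library size, where TMM is a scaling that sets most genes near a ratio of 1, and a gene was called measured at a mean of at least 1 CPM. By that rule 8 of the 10 genes were measured, and Mt2 and Slc39a7 were not. At a threshold of 2-fold, 1 of these 8 genes (Mt1) was called higher in 3D, where 18.7% of all 11673 measured genes were, and 1 (Slc39a10) was called lower, where 20.8% were. The share called in this group was no larger than among genes at large. Higher genes made up 47.3% of all calls under TMM and 13.3% when libraries were scaled to total counts, which lowers every log2 ratio by the same amount. The median log2 ratio of the 8 genes was -0.09, against 0.05 for all measured genes. Each ratio below carries an exact 95% interval for counting error, which holds no spread between cultures and treats reads as independent molecules.

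**Figure D1:**
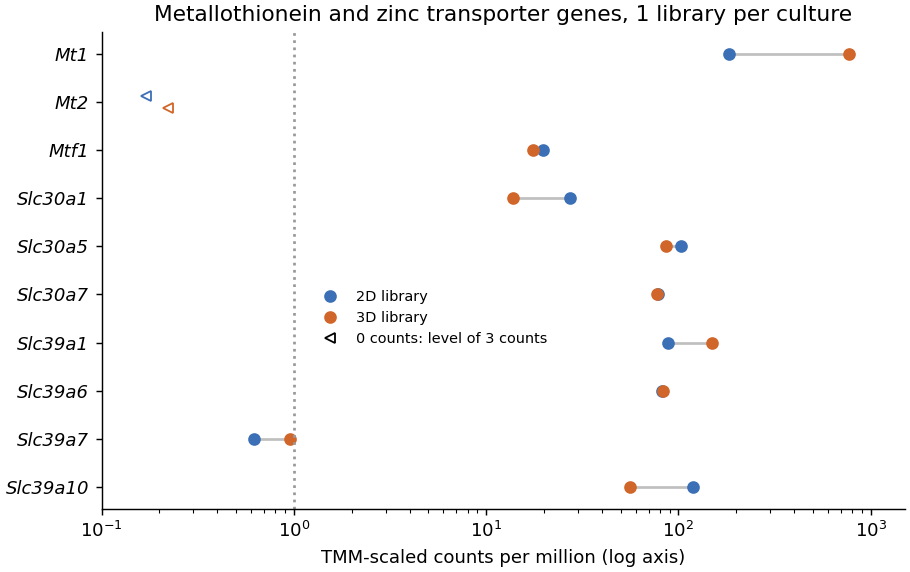
Level of each gene in TMM-scaled CPM (x, log axis) in the 2D library (blue) and the 3D library (orange), 1 library each; open triangles stand for the level that 3 counts would give where a library had 0, and the dotted line marks 1 CPM. Mt1 lies at 183 and 775 CPM, Slc39a10 at 119 and 55.9 CPM, and Mt2 has 0 counts in both libraries.

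Mt1 (ENSMUSG00000031765, mm10 chromosome 8, 94179082 to 94180327) had 3235 counts in 2D and 10483 in 3D. These are 183 and 775 CPM. Its ratio of 3D over 2D was 4.24 (4.07 to 4.41), above that of 98.2% of measured genes. Per kilobase of annotated exon, which allows genes to be compared, Mt1 had by far the most abundant transcript of the group, at 147 CPM per kilobase in 2D and 622 in 3D. That level ranked 209 among all measured genes in 2D and 112 in 3D. Annotated exons of Mt1 together cover the whole locus of 1246 bases with no intron left over, more than the spliced mRNA, so its level per kilobase is set low.

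Mt2 (ENSMUSG00000031762, chromosome 8, 94172664 to 94173568), the neighbour and close relative of Mt1 that MTF1 also activates, had 0 counts in both libraries. A count of 0 allows up to 0.17 CPM in 2D and 0.222 in 3D, counting error only, and no ratio can be formed. In the GENCODE M21 annotation, 432 of the 588 exon bases of Mt2 (73.5%) are shared with Gm45774, an antisense gene on the opposite strand, which had 9 and 6 counts. Mt1 shares no exon with another gene. Among protein-coding genes with at least 70% of exon bases shared with the opposite strand only, 66 of 91 (72.5%) had 0 counts in both libraries. Where no exon base is shared, 6656 of 15347 (43.4%) did. With 10 to 70% shared with the opposite strand only, 385 of 1702 (22.6%) did, so the share did not rise steadily with overlap. How the authors' counting treated reads that match more than 1 gene, and whether it used strand, is not stated in the labels. The other 156 exon bases of Mt2 are not shared with Gm45774, and no count was assigned to Mt2 from them either. With the counting settings unknown, the value of Mt2 was not read as the level of its transcript. The part of the overlap in it was not tested.

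Slc39a7, the importer of the endoplasmic reticulum that releases stored zinc to the cytosol, was in a like position. This gene (ENSMUSG00000024327, chromosome 17, 34028269 to 34031682) had 11 counts in 2D and 13 in 3D. Its 0.622 and 0.961 CPM fall short of the mean of 1 CPM required, and the ratio of 1.54 had an interval of 0.639 to 3.81. In this case 2084 of 2584 exon bases (80.7%) are shared with Gm20427 on the same strand, which had 0 counts in both libraries. Among protein-coding genes with at least 70% of exon bases shared on the same strand only, 159 of 206 (77.2%) had 0 counts in both. These overlap classes were drawn up after the values of Mt2 and Slc39a7 were seen. The 3 genes of the kinase CK2, which activates ZIP7, were all measured: Csnk2b stood at 83.9 CPM in 2D and 266 in 3D, Csnk2a1 at 137 and 65.5, and Csnk2a2 at 59.3 and 75.2.

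**Figure D2:**
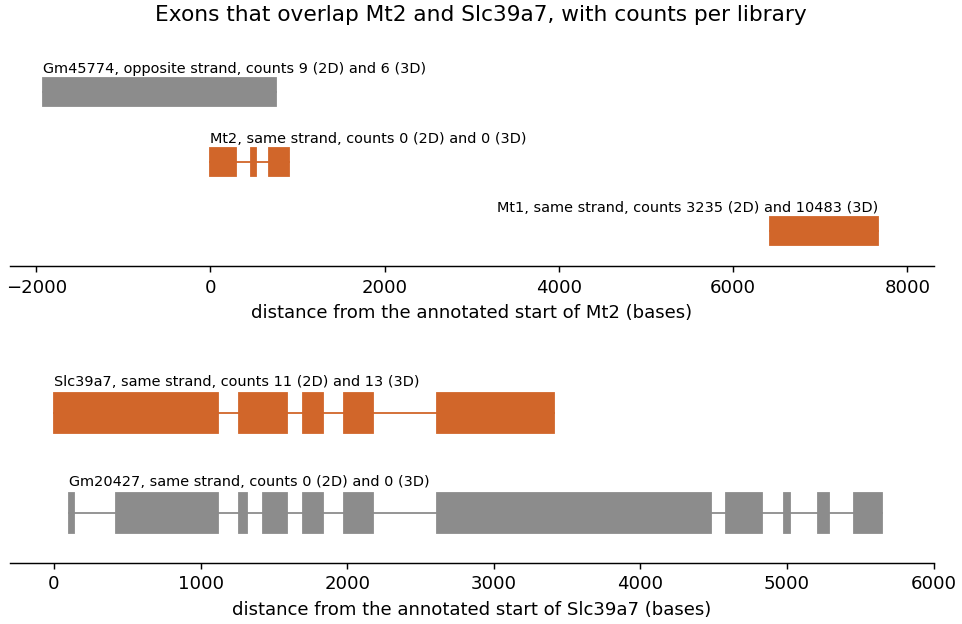
Annotated exons (boxes) joined by introns (lines) around Mt2 (upper map) and Slc39a7 (lower map), with distance in bases from each gene's annotated start on the x axis and the counts of each library beside the name; genes of the group are orange and overlapping genes grey. Gm45774 covers 432 exon bases of Mt2 on the opposite strand and Gm20427 covers 2084 exon bases of Slc39a7 on the same strand, while Mt1 stands apart from any other gene.

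Mtf1 (ENSMUSG00000028890, chromosome 4, 124802104 to 124849800), which encodes the sensor itself, had 348 counts in 2D and 238 in 3D. These are 19.7 and 17.6 CPM. The ratio was 0.894 and its interval of 0.755 to 1.06 includes 1, so a difference in either direction was not resolved even against counting error. Per kilobase of exon Mtf1 was the lowest of the 8 measured genes, at 2.21 and 1.97 CPM per kilobase.

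Among the exporters, Slc30a1 encodes ZnT1, which carries zinc out across the plasma membrane and, like Mt1, is activated by MTF1. Slc30a1 (ENSMUSG00000037434, chromosome 1, 191906767 to 191913247) had 481 counts in 2D and 187 in 3D. These are 27.2 and 13.8 CPM, a level 1.97-fold lower in the 3D library (1.66 to 2.34), just short of 2-fold; scaled to total counts, its log2 ratio of -1.58 passed that limit. It shares 8.92% of its exon bases with the antisense gene 1700034H15Rik, which had 59 and 4 counts, so part of its counts is uncertain if strand was not used. The targets Mt1 and Slc30a1 went opposite ways. Within a library the ratio of their counts needs no scaling: there were 6.73 Mt1 counts for each Slc30a1 count in 2D and 56.1 in 3D, an 8.34-fold difference (7.01 to 9.91, normal approximation on the log scale).

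Slc30a5 (ENSMUSG00000021629, chromosome 13, 100802648 to 100833427) encodes ZnT5, which loads the early secretory pathway with zinc as a heterodimer with ZnT6. It had 1834 and 1161 counts (103.7 and 85.8 CPM), a ratio of 0.827 (0.768 to 0.891). The gene of its partner, Slc30a6, had 255 and 330 counts (14.4 and 24.4 CPM), a ratio of 1.69 (1.43 to 2.00). For each count of Slc30a5 there were 0.139 counts of Slc30a6 in 2D and 0.284 in 3D, a 2.04-fold difference (1.71 to 2.45). Slc30a7 (ENSMUSG00000054414, chromosome 3, 115938973 to 116007406), which encodes the Golgi transporter ZnT7, had 1393 and 1050 counts (78.8 and 77.6 CPM). Its ratio of 0.985 had an interval of 0.908 to 1.07 and was not distinct from 1.

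Importers of the plasma membrane split by gene. Slc39a10 encodes ZIP10, for which repression by MTF1 has been described. Slc39a10 (ENSMUSG00000025986, chromosome 1, 46807544 to 46892852) had 2113 counts in 2D and 757 in 3D. These are 119 and 55.9 CPM, 2.14-fold lower in the 3D library (1.96 to 2.32). Slc39a1 (ENSMUSG00000052310, chromosome 3, 90248172 to 90253612), which encodes the broadly expressed importer ZIP1, had 1566 and 2011 counts (88.5 and 149 CPM), 1.68-fold higher in the 3D library (1.57 to 1.79). The pseudogene Slc39a1-ps had 2 and 9 counts. Slc39a6 (ENSMUSG00000024270) encodes ZIP6, which forms a heteromer with ZIP10. It had 1460 and 1130 counts (82.6 and 83.5 CPM), with a ratio of 1.01 (0.935 to 1.09). There were 0.691 counts of Slc39a6 for each count of Slc39a10 in 2D and 1.49 in 3D, a 2.16-fold difference (1.93 to 2.42). The gene pairs set against each other within libraries were picked after their values were seen.

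Per kilobase of exon, the order of the zinc transporter genes was not the same in the libraries. In 2D, Slc39a1 led the transporters at 37.5 CPM per kilobase, followed by Slc39a6 at 20.3 and Slc39a10 at 19.6, whose counting intervals overlap. In 3D, Slc39a1 stood at 62.9 CPM per kilobase and Slc39a11, an importer gene that is not among the 10, came next at 32.9. Slc39a6 followed at 20.5, Slc30a5 at 11.8, and Slc39a10 at 9.18 lay level with Slc39a9 at 9.16. Slc30a1 was the lowest measured exporter of the 3D library, at 2.64 CPM per kilobase. Exon length is the union over annotated transcripts, so these levels are approximate: Slc39a1 has 1 annotated transcript, while a union over several can exceed each of them and set the level lower.

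The rest of the zinc genes were taken as a list of 2 metallothioneins, 8 exporters and 10 importers, chosen with earlier results of these data known. Of these 20 genes, 10 were measured, of which 1 passed 2-fold on the higher side in 3D and 3 on the lower side, where 18.7% and 20.8% of all measured genes did. The higher gene was Slc39a11, with 924 and 1496 counts (52.2 and 111 CPM) and a ratio of 2.12 (1.95 to 2.30). Slc30a4, which loads endosomes and lysosomes, had 1354 and 421 counts and was 2.46-fold lower (2.20 to 2.75). Slc30a9, a zinc transporter of mitochondria, had 1840 and 648 counts and was 2.17-fold lower (1.98 to 2.38). Slc39a8, which moves zinc and manganese, had only 26 and 9 counts and was 2.21-fold lower (1.004 to 5.36). After full adjustment the log2 ratio of Slc39a8 was 1.26, past 2-fold on the higher side. Those of Slc39a11, Slc30a4 and Slc30a9 were 0.27, -0.43 and -0.39.

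Importers with smaller differences were Slc39a3 at 16.0 CPM in 2D and 26.97 in 3D, Slc39a9 at 82.0 and 93.0, Slc39a13 at 28.1 and 31.6, and Slc39a14 at 64.5 and 67.5. Slc39a2 had 19 and 24 counts. No count was seen for Mt4, Slc30a2, Slc30a8, Slc30a10, Tmem163 and Slc39a12. Mt3, the metallothionein known from brain, had 0 and 2 counts, and Slc30a3 had 0 and 1. Slc39a4 had 8 and 13 counts and Slc39a5 had 1 and 5, all below the level required.

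Taken over both lists, the 6 measured exporters had a median log2 ratio of -0.63 and the 10 measured importers one of 0.17. Of the exporters 5 lay below a ratio of 1 and 1 above it, and of the importers 2 lay below and 8 above. Among these, the counting intervals of Slc30a7, Slc39a2, Slc39a6, Slc39a13 and Slc39a14 include 1. Total counts lower every log2 ratio by 0.60, which would put Slc39a6, Slc39a9, Slc39a13 and Slc39a14 below a ratio of 1. Summed over all listed genes per kilobase of exon, exporters stood at 53.6 CPM per kilobase in 2D and 38.9 in 3D, and importers at 118 and 156. Exporters over importers thus made 0.455 in 2D and 0.25 in 3D, a comparison within each library that needs no scaling. Under TMM the largest changes in the importer sum were those of Slc39a1 (37.5 to 62.9), Slc39a11 (15.6 to 32.9) and Slc39a10 (19.6 to 9.18). The direction for importers depends on the scaling: their sum was 1.32-fold of the 2D value under TMM but 0.873-fold when libraries were scaled to total counts, while exporters were at 0.726-fold and 0.479-fold.

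Transcript composition moved with these differences. Sorted into deciles by GC content, measured genes had a median log2 ratio of -1.34 in the lowest decile and 0.96 in the highest. The measured exporters had a median transcript GC content of 43.9% and the measured importers one of 50.9%. When all genes were adjusted for expression level, exon length and GC content, the medians were 0.04 for exporters and -0.02 for importers. With that adjustment none of the 8 genes was 2-fold higher or 2-fold lower, where 10.5% of all genes were 2-fold higher and 9.75% lower. The part of transcript composition in the split between exporters and importers cannot be told apart from culture in this design.

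**Figure D3:**
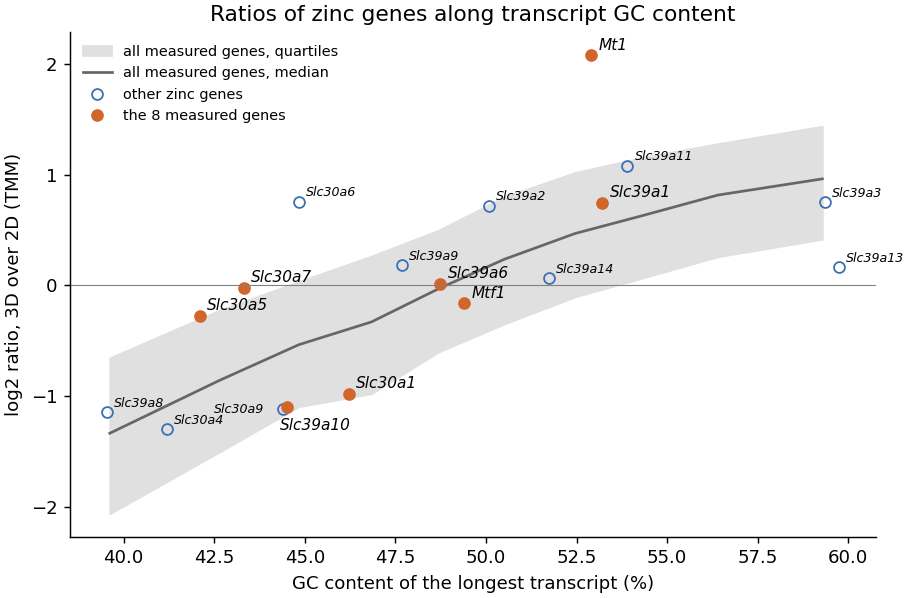
Log2 ratio of 3D over 2D under TMM scaling (y) against the GC content of the longest transcript in percent (x), for the 8 measured genes (orange), the 10 other measured zinc genes (blue circles) and all measured genes by decile of GC content (grey line, median; band, quartiles). The line climbs from -1.34 to 0.96, Mt1 at 2.08 lies far above it, and Slc39a10 at -1.09 and Slc30a1 at -0.98 lie at the lower edge of the band.

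Read against genes of like GC content, Mt1 still stood apart while its size shrank. Its GC content of 52.9% put it in decile 7 of genes, whose median log2 ratio was 0.47, and it lay above 97.7% of them, 1.61 log2 units over that median. Full adjustment took the log2 ratio of Mt1 from 2.08 to 0.57, which is 1.48-fold and above 77.4% of measured genes. The adjustment counts mean expression, in which the 3D level of Mt1 itself takes part; with GC content and exon length only, an alternative added after seeing the data, the log2 ratio of Mt1 was 1.48, which is 2.79-fold and past the 2-fold limit.

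Slc39a10 and Slc30a1 kept the lower side. Their log2 ratios of -1.09 and -0.98 became -0.69 and -0.43 after full adjustment. Slc30a7 and Slc30a5, with transcripts of 43.3% and 42.1% GC content, went from log2 ratios of -0.02 and -0.27 to adjusted values of 0.78 and 0.46. Slc39a1 turned from 0.75 to -0.23, Slc39a6 from 0.02 to -0.21 and Mtf1 from -0.16 to 0.24, so the direction of these 5 genes (Slc30a7, Slc30a5, Slc39a1, Slc39a6 and Mtf1) depends on the adjustment. The log2 difference between Mt1 and Slc30a1 was 3.06 before and 0.998 after adjustment, and that between Slc39a6 and Slc39a10 was 1.11 and 0.48.

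**Figure D4:**
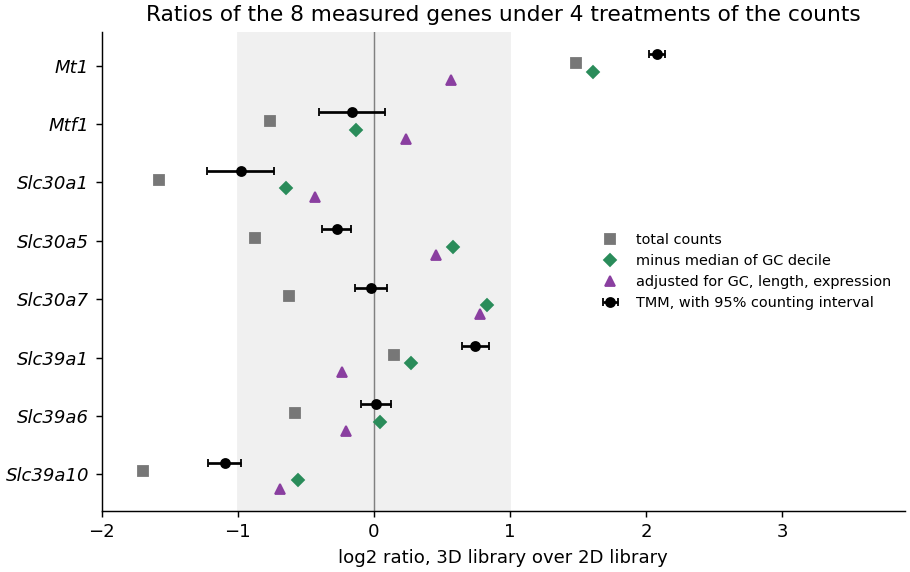
Log2 ratio of 3D over 2D (x) for the 8 measured genes under TMM scaling (black, bars are exact 95% counting intervals), total counts (grey squares), relative to the median of genes in the same decile of GC content (green diamonds) and after the full adjustment (purple triangles); the shaded band holds ratios under 2-fold. Mt1 is above 0 and Slc30a1 and Slc39a10 are below 0 in all 4 sets, whereas Slc30a5, Slc30a7, Slc39a1, Slc39a6 and Mtf1 lie on both sides of 0.

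Further genes reported as MTF1 targets were read beside Mt1, from a list of 8 chosen with earlier results of these data known. Of 7 measured, 2 passed 2-fold on the higher side in 3D and 0 on the lower, where 18.7% and 20.8% of all measured genes did, with a median log2 ratio of 0.84 against 0.05 for all genes. Ndrg1, which also responds to low oxygen, stood at 140 and 671 CPM, 4.79-fold higher (4.58 to 5.01; adjusted log2 ratio 1.63). Pgf, which encodes placental growth factor, had 38 and 187 counts, 6.43-fold higher (4.52 to 9.37). The LIM domain protein gene Csrp1 stood at 51.7 and 94.7 CPM and the selenoprotein gene Selenow at 44.0 and 78.7. Gclc, which encodes the catalytic subunit for glutathione synthesis, stood at 50.2 and 37.5 CPM. Slc40a1, the iron exporter ferroportin, stood at 20.8 and 21.6 CPM, and Atp7b, a copper pump, at 13.1 and 22.3. Of the 7 measured genes of this list, 6 lay above a ratio of 1 and 1 (Gclc) below it. The interval of Slc40a1 (0.889 to 1.22) includes 1. These genes had a median transcript GC content of 53.5%. After full adjustment the log2 ratios of Selenow (-0.66), Gclc (-0.38) and Csrp1 (-0.16) lay below 0. Those of Ndrg1, Pgf, Slc40a1 and Atp7b lay above 0, and the median of the list was 0.64.

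Metallothionein genes are also strongly expressed in liver, and transcripts of other cells were checked for that reason. All 10 macrophage markers were measured. At 2-fold 5 of them were called higher in 3D and 1 lower, where 18.7% and 20.8% of all measured genes were. After full adjustment 0 were 2-fold higher and 0 lower, with a median log2 ratio of -0.02. Lyz2 stood at 1349 and 3537 CPM and Cd68 at 864 and 2817 CPM, while Ptprc stood at 135 and 49.6 CPM and Itgam at 21.9 and 16.0. Of 12 hepatocyte markers, 11 had counts in 3D and 5 in 2D, but only 2 (Alb and Ahsg) were measured. Fga and Serpina1a had 1 count each in 3D, and Apoa2 went the other way with 11 and 2 counts. The summed level of the list was 1.41 CPM in 2D and 24.3 in 3D, of which Alb alone had 0.452 and 17.1. Alb, the defining gene of the list, had 8 and 232 counts, against 3235 and 10483 for Mt1, so there were 404 Mt1 counts for each Alb count in 2D and 45.2 in 3D. Markers of fibroblasts, epithelium, endothelium, T cells, B cells, neutrophils and red cells summed to at most 1.98 CPM per list in 2D and 2.96 in 3D, with the T cell genes Cd3e, Cd3d and Cd3g at 0 in both. The part of hepatocyte RNA in the level of Mt1 was not tested.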

How the data were processed

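Counts of reads per Ensembl gene were deposited for 2 libraries of RAW264.7 cells, 1 from 2D and 1 from 3D culture, with 14371084 and 16652503 counts in all. The authors' counts were made with Trimmomatic, HISAT2 and HTSeq against mm10 according to the submitters' processing notes, which as used here name no version, setting or strand option. GENCODE M21 gave symbols, positions and exon lengths for 52403 of 52550 identifiers.

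Counts were scaled with TMM factors of edgeR 4.0.16 (1.23 for 2D and 0.813 for 3D), and ratios of CPM carry Clopper-Pearson intervals conditional on the summed counts. A library at 0 was set to a floor of 3 counts. Adjusted log2 ratios are residuals of a spline regression on mean expression, exon length and GC content of the longest transcript (4 degrees of freedom each, patsy 1.0.2), which took up 45.0% of the variance. Ratio, interval and adjustment were tested on simulated counts. These held counting error only and no spread between cultures, so the test says nothing about that spread.

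The members and lists were chosen with earlier results of these data known. All 10 members and every measured zinc gene are described, with up to 4 members of each other list by mean expression and a few genes named after their values were seen. The alternatives were DESeq2 1.42.0 size factors, total counts, upper-quartile and reference gene scaling, other filters, a pseudocount, other thresholds, thinning, protein-coding genes only and 2 treatments of composition; 2 more adjustments were added after seeing the data.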

Additional observations from a re-analysis of the deposited data

How the results depend on the processing

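With 1 library per culture method no library could be left out, and few counts gave wide intervals for Slc39a7, Slc39a8 and Slc39a2. No paired analysis was possible because each culture method has 1 library. Over 13 alternatives with a value, the log2 ratio of Mt1 stayed above 0, between 0.57 and 2.10, and past 2-fold in 11. Those of Slc39a10 and Slc30a1 stayed below 0, between -1.76 and -0.38 and between -1.64 and -0.21. Signs turned in 6 alternatives each for Slc30a7 and Slc39a6, in 3 each for Mtf1 and Slc30a5 and in 2 for Slc39a1; the cause was not tested. Total counts shift all log2 ratios by -0.60, to an all-gene median of -0.56, and the calls over all genes become 13.3% higher ones against 47.3% under TMM; scaling to 22 reference genes gives 11.2%.

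The count of the 10 genes at least 2-fold higher was 1, and became 2 at 1.5-fold, and 0 under full adjustment and under adjustment with the longest protein-coding transcript. The count lower was 1. It became 2 under total counts, reference genes, thinning, protein-coding genes only and 1.5-fold, and 0 by the interval bound, relative to the GC decile and under the 3 adjustments. The count of other zinc genes higher was 1. It became 0 under total counts, reference genes and the interval bound, 3 with no filter and under full adjustment, 4 at 1.5-fold, and 2 with thinning and with the longest protein-coding transcript. The 3 under full adjustment were Slc39a2, Slc30a6 and Slc39a8, and Slc39a11 was not among them. The count of other zinc genes lower was 3. It became 2 under reference genes, thinning, the stricter filter at 5 CPM and 1 CPM added to both libraries, 1 by the interval bound, and 0 relative to the GC decile and under the 3 adjustments. The median log2 ratio of the members less that of all genes was -0.14, and became 0.078 with no filter, 0.16 relative to the GC decile and 0.064 with adjustment for GC content and exon length only.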

Other observations

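Genes for other metals did not move as a block. Of 12 genes for copper handling, 11 were measured, of which 3 passed 2-fold on the higher side in 3D and 3 on the lower, where 18.7% and 20.8% of all measured genes did, and a median log2 ratio of -0.18. Sod1, the superoxide dismutase that needs both copper and zinc, stood at 190 CPM in 2D and 554 in 3D, 2.93-fold higher (2.81 to 3.05; adjusted log2 ratio 1.08). The reductase gene Steap3 stood at 47.9 and 104 CPM, 2.16-fold higher, and the copper importer gene Slc31a1 at 117 and 103 CPM. Slc31a2, which acts on copper in endosomes, stood at 77.3 and 32.9 CPM, 2.35-fold lower (2.11 to 2.62; adjusted log2 ratio -1.70). The third higher gene was the copper chaperone gene Atox1, with 483 and 855 counts; the other two lower genes were the copper pump gene Atp7a, with 913 and 334 counts, and Cox17, with 294 and 13.

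Among 8 transporters of iron, manganese and magnesium, 1 was at least 2-fold higher and 2 were lower, where 18.7% and 20.8% of all measured genes were. Slc11a1, the metal pump of the macrophage phagosome, stood at 87.6 and 322 CPM, 3.68-fold higher (3.47 to 3.9; adjusted log2 ratio 0.76). The transferrin receptor gene Tfrc stood at 207 and 69.98 CPM, 2.96-fold lower, and the mitochondrial iron importer gene Slc25a37 at 97.8 and 26.5 CPM, 3.70-fold lower (adjusted log2 ratio -1.82). Atp2c1, a calcium and manganese pump of the Golgi apparatus, stood at 226 and 115 CPM. In the zinc chaperone and sensing list, Metap1 stood at 56.4 and 43.5 CPM, Cbwd1 at 18.1 and 9.24, and Zfp658 at 2.94 and 1.85, with Gpr39 at 0 counts in both libraries.

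Metallothionein genes also respond to glucocorticoids. Of 8 genes of that response, 7 were measured, with a median log2 ratio of -0.10. At 2-fold 1 was higher (Dusp1, 141 and 324 counts) and 1 lower (Klf9, 494 and 128 counts), where 18.7% and 20.8% of all measured genes were. Fkbp5 stood at 71.1 and 61.3 CPM, Tsc22d3 at 33.2 and 31.1, Per1 at 57.0 and 85.4, and the receptor gene Nr3c1 at 47.6 and 27.6. The zinc-binding S100a8 had 2 and 15 counts, and S100a9 had 0 in both libraries.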
